A study of Danio rerio with 12 samples.

Results

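Macrophages that carried a green fluorescent reporter were sorted from wild-type zebrafish embryos at 28 and 50 h post-fertilisation (hpf), and the change in their transcriptome over these 22 h was examined gene by gene. The comparison rested on 6 of the 12 libraries of the series: 3 control libraries at 28 hpf and 3 at 50 hpf, chosen by their labelled genotype and stage, with every gene considered. Control animals were wild type at the csf1ra and csf1rb loci and carried reporter constructs only, mpeg-GFP per the labels and, per the study's methods, also an shhb:KalTA4,UAS-E1b:mCherry enhancer trap. The 6 other libraries, used here for a shared estimate of the spread and for 1 comparison at the end, came from csf1rDM embryos of the same 2 stages, which lack both Csf1r receptors (csf1ra j4e1/j4e1; csf1rb re01/re01) and carried the same reporter. Each control library was a pool of 35 embryos, so p-values measure the spread between pools. Embryos of both stages were kept on a light-dark cycle and, per the methods, in medium with the pigment blocker PTU from the end of the first day, so the time spent in PTU rose with age and cannot be told apart from it.

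Primitive macrophages are the first leukocytes of the zebrafish embryo. They arise from mesoderm in the head region, move over the yolk, and then enter the head, skin and other tissues, where they clear dying cells and where some settle in the brain and retina as microglia. A second, transient wave of progenitors in the tail adds macrophages during the second day. The promoter of mpeg1, which encodes the pore-forming protein perforin-2, is active in all of these cells, so the sort pooled macrophages from the yolk, the blood and the tissues of whole embryos. In such bulk RNA a change within each cell and a change in the mixture of cells cannot be told apart, nor can fewer cells of a type be told apart from less RNA per cell.

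Control libraries held 12741263 to 16443828 counts at 28 hpf and 14820285 to 20261650 counts at 50 hpf, and levels are given as CPM, the counts relative to the library total after scaling by TMM (trimmed mean of M-values). Pearson correlations of log2 CPM across genes, which are not independent replicates, were 0.968 to 0.983 among the 28 hpf libraries, 0.962 to 0.978 among the 50 hpf libraries and 0.912 to 0.945 between stages. No replicate pair agreed within sampling noise, and all 6 libraries were counted separately. The macrophage label held: the mpeg1 copy ENSDARG00000055290 was at 2437 to 3715 CPM in all 6 libraries, and csf1ra, csf1rb, irf8 and marco were detected in each of them. Markers of vessels differed: kdrl and cdh5 stayed under 3 CPM. Tek was at 70 to 83 CPM and tie1 at 40 to 70 CPM across the 6 libraries.

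Replicates 1 and 2 at 50 hpf stood apart from the others by transcripts of skeletal muscle. The 26 muscle markers other than eno3, which all 6 libraries expressed at 533 to 746 CPM, summed to 5946 and 5189 CPM in these 2 libraries, to 32.1 CPM in replicate 3 at 50 hpf, and to 28.2 to 37.6 CPM at 28 hpf. Cardiac-type actin actc1b, for example, was at 3.96, 5.8 and 3.16 CPM at 28 hpf and 1522, 1401 and 2.81 CPM at 50 hpf. Fast myosin myhz1.1 and the calcium pump atp2a1 followed the same pattern, and 0 of 24 tested muscle markers passed the thresholds given below. Of the 24, 5 were higher at 50 hpf without overlap between the stages, against 26.3% of all tested genes. The counts of the main gene lists are therefore also given without these 2 libraries, which leaves 1 library at 50 hpf whose spread is assumed to be that of the other groups.

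**Figure D1:**
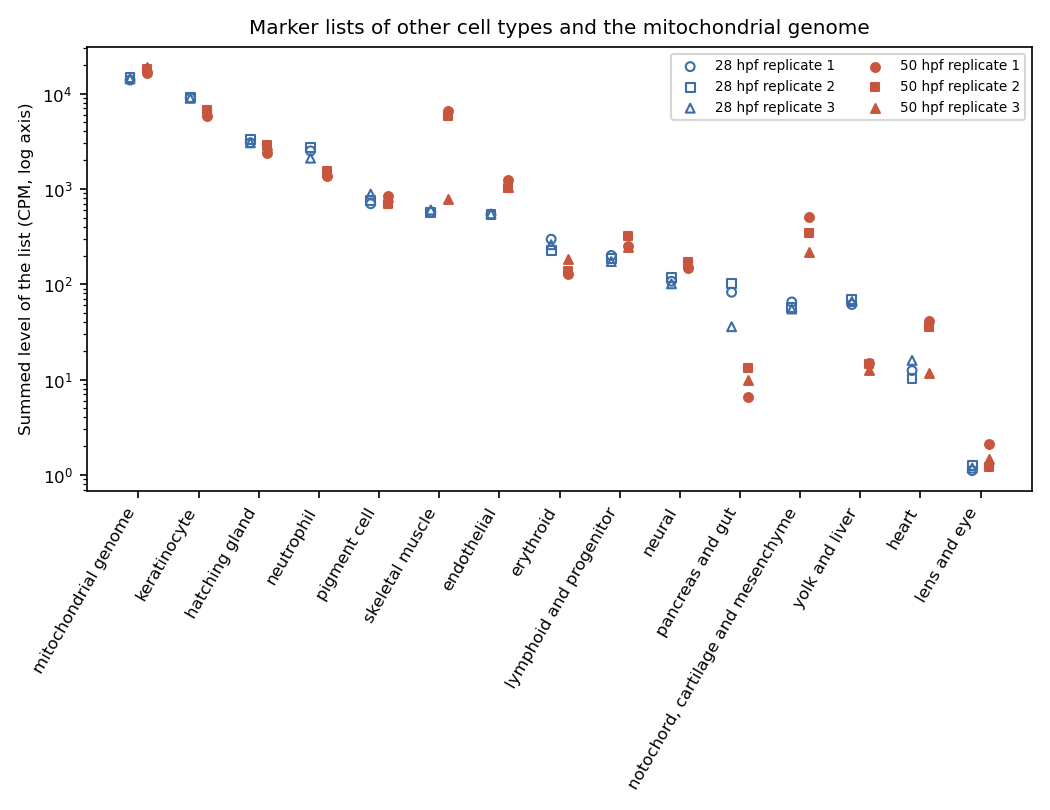
Summed level (CPM, log axis) of marker lists of other cell types and of the mitochondrial genome in each control library; open blue symbols are 28 hpf, filled red symbols 50 hpf, and the shape gives the replicate. The muscle list reached 6555 and 5872 CPM in replicates 1 and 2 at 50 hpf against 778 CPM in replicate 3 and 570 to 601 CPM at 28 hpf.

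Other marker lists moved with age too, and their part in the results was not tested. The collagen and mesenchyme list went from 54.9 to 65.2 CPM per library at 28 hpf to 218 to 511 CPM at 50 hpf. The pancreas and gut list went from 35.8 to 102 CPM to 6.63 to 13.2 CPM, with 1 of 6 tested members lower. Most of this sum at 28 hpf was cpa1 (ENSDARG00000021339), at 37.2, 49.7 and 11.9 CPM, and pdia2, at 38, 44.8 and 16.4 CPM. Both were lowest in replicate 3 of that stage. The yolk and liver list went from 61.2 to 68.8 CPM to 12.6 to 14.8 CPM, through tfa, since the ratio of 50 to 28 hpf was 0.214 with it and 1.09 without it. The neutrophil list went from 2100 to 2730 CPM to 1370 to 1550 CPM, with 7 of 17 tested members lower and 0 higher (3 without replicate 2 at 28 hpf or replicate 1 at 50 hpf, 4 without replicate 3 at 50 hpf); it holds genes such as ncf1 that macrophages express as well. The endothelial list went from 538 to 546 CPM to 1020 to 1250 CPM, 1.48 times higher on average without its top member stab1. Of its 38 tested members 4 rose and 1 fell (median log2 fold change 0.21). Without overlap 11 were higher and 6 lower, against 26.3% and 23.0% of all tested genes. Its members kdrl and cdh5 were under 3 CPM with overlapping stages. By contrast, plvapb, at 0.967 to 1.90 CPM against 5.31 to 7.22 CPM, flt4, ramp2, prox1 and tie1 were higher in every 50 hpf library. Fli1, at 44.6 to 46.8 CPM against 24.9 to 27.2 CPM, tal1, ets1, erg, stab2 and myct1b were lower in every 50 hpf library. The keratinocyte list went from 8910 to 9170 CPM to 5850 to 6750 CPM. Most of this sum was the actin regulator pfn1, and without it the ratio of 50 to 28 hpf was 0.387 against 0.704, with 3 of 21 tested members lower. Several members were high at 28 hpf in replicate 1 alone, which raised the 28 hpf side of this ratio. At 28 hpf krt4 was at 171, 8.71 and 6.58 CPM, krt92 at 58.9, 0 and 0.434 CPM and cldne at 51.3, 0 and 0 CPM. In the same libraries krt8 was at 468, 443 and 499 CPM and cdh1 at 102, 78.6 and 83.8 CPM. The erythroid list went from 223 to 296 CPM to 126 to 184 CPM, a ratio of 0.577 that was 0.821 without its top member urod. The median of its 14 tested members was 0.47, with 9 above 0. Its member slc4a1 (ENSDARG00000012881) was at 12.7, 0.138 and 0.186 CPM at 28 hpf and 3.75, 0.909 and 11.3 CPM at 50 hpf. It was thus highest in replicate 1 at 28 hpf and in replicate 3 at 50 hpf. The neural list went from 101 to 118 CPM to 150 to 170 CPM, with 3 of 31 tested members higher and 0 lower (1 without replicate 2 or 3 at 28 hpf or replicate 2 at 50 hpf) and 16 higher without overlap. The lymphoid and progenitor list went from 173 to 200 CPM to 243 to 320 CPM, through its top member ccr9. The ratio of 50 to 28 hpf was 1.46 with ccr9 and 0.79 without it. The sum without ccr9 held myb, at 37.9, 38.8 and 31.1 CPM at 28 hpf and 4.06, 5.74 and 4.73 CPM at 50 hpf. The median log2 fold change of the 12 tested members was 0.54, with 7 above 0. Without overlap 5 were higher and 2 lower, against 26.3% and 23.0% of all tested genes. The 13 genes of the mitochondrial genome went from 13900 to 14800 CPM to 16400 to 18900 CPM. For each of these sums an exact permutation test of 3 against 3 libraries, two-sided, gave p = 0.1, the smallest value that this design allows.

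From 28 to 50 hpf, 704 genes rose and 329 fell among the 16429 tested. A gene was called where edgeR's quasi-likelihood test gave a Benjamini-Hochberg adjusted p below 0.01 and the log2 fold change was beyond 1 in size. These calls were 6.29% of the tested genes, 4.29% higher and 2.00% lower, and this is the background for the counts of each gene list. For all 1033 called genes the 3 libraries of one stage lay outside the range of the 3 of the other; among all tested genes this held for 49.3%. The median log2 fold change of all tested genes was 0.055, a value that TMM scaling holds near 0 by construction, so a shift of all levels together could not be seen. Among the called genes, 283 rose and 106 fell more than 4-fold, and 38 rose and 14 fell more than 32-fold. These are fitted fold changes, which are no bound for the 38 risen genes at the floor of 3 counts in each 28 hpf library and the 7 fallen genes at it in each 50 hpf library. Without the 2 libraries with muscle transcripts 465 genes were called, of which 438 were among the 1033, and all 1033 kept their sign. Of the genes named below, tal1, cfp, cfbl, tapbp.1, tgfbr2, slc48a1, lipg, pdk4, cdc45, cks1b, mybl2, mmp25b, runx3, klf2a and lum kept their sign there and were no longer called (adjusted p between 0.0105 and 0.0577). The same held for lyz, npsn, csf1rb, anxa2, dusp1, pmaip1 and col1a2 (between 0.0253 and 0.283), for mcm5 and lcp1 by the fold limit, and for other genes where they are described.

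**Figure D2:**
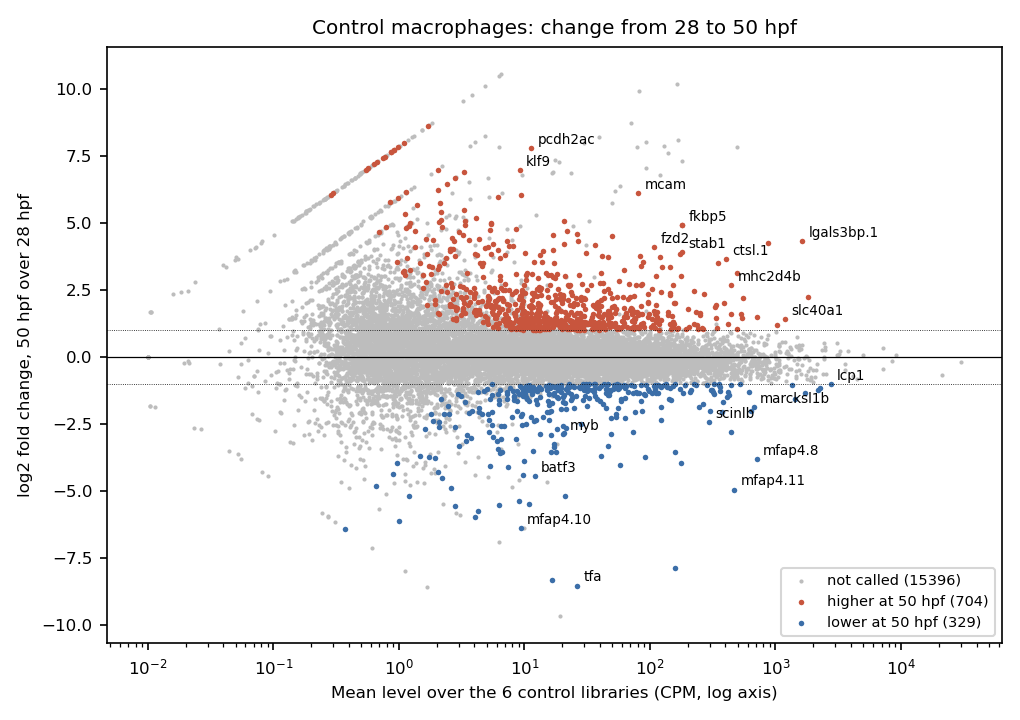
Change of each tested gene from 28 to 50 hpf in control macrophages (log2 fold change, vertical axis) against its mean level over the 6 control libraries (CPM, log axis). Red points are the 704 called genes that were higher at 50 hpf and blue points the 329 that were lower; grey points with large changes at the upper right include the muscle transcripts of replicates 1 and 2, such as actc1b with a log2 fold change of 7.82 and an adjusted p of 0.0404.

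The largest rises from low levels included genes of adhesion and transcription. Protocadherin pcdh2ac, a member of the clustered protocadherin adhesion proteins, was at 0.317, 0 and 0 CPM at 28 hpf and 27.8, 17.5 and 22.4 CPM at 50 hpf (log2 fold change 7.77 ± 0.81, adjusted p = 1.99e-05, where ± is the standard error here and below). The adhesion molecule mcam (CD146) was at 1.35, 2.35 and 3.16 CPM at 28 hpf and 161, 163 and 156 CPM at 50 hpf (log2 fold change 6.10 ± 0.49, adjusted p = 1.90e-06). Robo4, a receptor of the roundabout family best known from vessels, was at 1.03, 1.59 and 0.931 CPM at 28 hpf and 46.1, 35.7 and 39 CPM at 50 hpf (log2 fold change 5.08 ± 0.42, adjusted p = 2.50e-06). All 3 adhesion genes were under 4 CPM at 28 hpf and far higher in every library at 50 hpf, replicate 3 included. Mcam and robo4 are also in the endothelial list, which moved with age as given above. The transcription factor sall3, a relative of the microglial factor Sall1 of mammals, was at 0.0792, 0.414 and 0.31 CPM at 28 hpf and 25.6, 13.8 and 16.4 CPM at 50 hpf (log2 fold change 6.04 ± 0.72, adjusted p = 6.14e-05). The galectin-3-binding proteins lgals3bp.3 and lgals3bp.1 rose together. The first was at 0.396, 0.207 and 0.372 CPM at 28 hpf and 7.94, 10.1 and 13.4 CPM at 50 hpf, and lgals3bp.1 was at 159.8, 161 and 148 CPM at 28 hpf and 2828, 3182 and 3354 CPM at 50 hpf (log2 fold change 4.32 ± 0.13, adjusted p = 1.89e-09). Among genes with high counts the Wnt receptor fzd2 also rose, from 12.12 ± 2.45 to 205 ± 13.2 CPM (mean ± SD, n = 3; log2 fold change 4.08 ± 0.16, adjusted p = 7.30e-09).

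The largest falls were of several kinds. Transferrin tfa, a plasma protein of the liver, was at 52.5, 46.9 and 58.3 CPM at 28 hpf and 0.438, 0 and 0 CPM at 50 hpf. The disulfide isomerase pdia2, known from the pancreas, was at 38, 44.8 and 16.4 CPM at 28 hpf and 0.0625, 0.0957 and 0.128 CPM at 50 hpf. The unnamed gene si:ch1073-429i10.1 was at 353, 451 and 150.2 CPM at 28 hpf and 0.5, 1.82 and 1.66 CPM at 50 hpf (log2 fold change -7.87 ± 0.52, adjusted p = 4.43e-07). The gap between stages was wide for all 3, but replicate 3 at 28 hpf held less of pdia2 and of si:ch1073-429i10.1 than the other 2 libraries of that stage. The neutrophil genes lyz (lysozyme) and npsn (nephrosin, a metalloprotease) shared this pattern. Lysozyme was at 178, 279 and 49 CPM at 28 hpf and 7.69, 17.2 and 13.6 CPM at 50 hpf (log2 fold change -3.71 ± 0.73, adjusted p = 0.0026), and its call was lost without replicate 2 at 28 hpf or without replicate 1 or 3 at 50 hpf (adjusted p up to 0.0185), as was that of npsn without any 1 control library other than replicate 3 at 28 hpf (up to 0.0220). Batf3, a basic leucine zipper factor known in mammals from dendritic cells, fell without such spread, from 23.1 ± 1.63 to 1.05 ± 0.107 CPM (log2 fold change -4.45 ± 0.24, adjusted p = 9.49e-08).

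**Figure D3:**
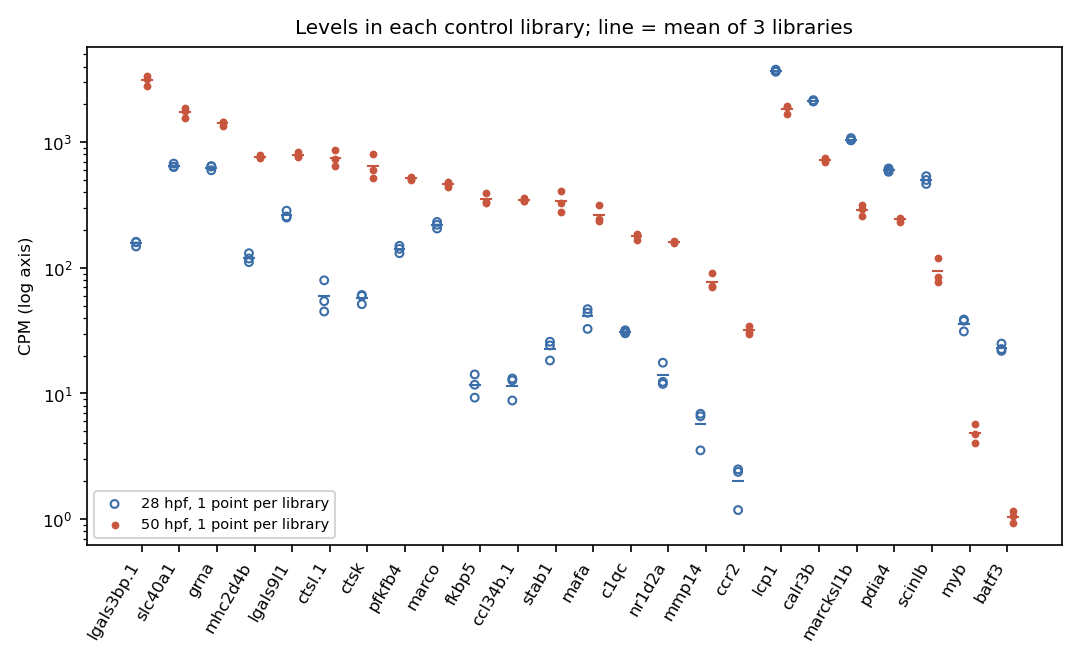
Levels of 24 genes named in the text in each control library (CPM, log axis). Open blue points are the 3 libraries at 28 hpf, filled red points the 3 libraries at 50 hpf, and short lines the means; for every gene shown the 2 stages do not overlap, as for fkbp5 (9.26 to 14.2 against 329 to 391 CPM) and batf3 (21.8 to 24.9 against 0.938 to 1.15 CPM).

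Genes that identify macrophages moved in both directions. Of 45 tested members of the list, 9 rose and 6 fell (median log2 fold change 0.12 against 0.055 for all genes; 15 calls, 11 without the 2 libraries with muscle transcripts). The endogenous gene whose promoter drives the reporter, mpeg1 (ENSDARG00000055290), was at 2437, 2636 and 2570 CPM at 28 hpf and 3523, 3715 and 3628 CPM at 50 hpf. This shift was outside the spread of the pools but under the fold limit (log2 fold change 0.51 ± 0.05, adjusted p = 8.84e-06). The GFP transcript itself was not among the counted genes. Csf1ra, the receptor for Csf1 and Il34, was at 227, 235 and 214 CPM at 28 hpf and 445, 349.7 and 416 CPM at 50 hpf (log2 fold change 0.84 ± 0.11, adjusted p = 1.22e-04, under the fold limit). Its paralogue csf1rb was at 135, 136 and 161 CPM at 28 hpf and 441, 257 and 295 CPM at 50 hpf (log2 fold change 1.198 ± 0.21, adjusted p = 0.00117). Without replicate 1 at 50 hpf the value of csf1rb was 0.91, under the fold limit. The mannose receptor mrc1b rose and was at 143, 152 and 167 CPM at 28 hpf and 836, 519.7 and 514 CPM at 50 hpf (log2 fold change 2.02 ± 0.23, adjusted p = 4.43e-05), whereas mrc1 was not called (log2 fold change 0.46). Replicate 1 at 50 hpf was the highest for csf1rb and mrc1b, yet the lowest 50 hpf library was still above all 28 hpf libraries.

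Copies of mfap4 changed unequally. Mfap4 encodes a fibrinogen-domain protein, and its promoter is used beside that of mpeg1 to mark zebrafish macrophages. Of 12 tested IDs with an mfap4 symbol, 7 fell past the thresholds, 0 rose and 11 had a value below 0 (median log2 fold change -1.16). Mfap4.8 was at 1272, 1445 and 1258 CPM at 28 hpf and 96, 92.5 and 97.4 CPM at 50 hpf (log2 fold change -3.80 ± 0.12, adjusted p = 1.89e-09). Mfap4.11 was at 817, 1044 and 870.4 CPM at 28 hpf and 28.7, 25.9 and 34.2 CPM at 50 hpf (log2 fold change -4.94 ± 0.17, adjusted p = 3.10e-09). Mfap4.7 was at 705, 896 and 729 CPM at 28 hpf and 114, 102 and 119 CPM at 50 hpf (log2 fold change -2.80 ± 0.13, adjusted p = 2.44e-08). These 3 copies fell by large factors with tight replicates, whereas the 2 IDs with the highest counts differed from each other. The copy ENSDARG00000090783 fell from 3072 ± 37.7 to 1315 ± 127 CPM (log2 fold change -1.23 ± 0.07, adjusted p = 9.41e-08). The copy ENSDARG00000088745 was at 2943, 3214 and 2896 CPM at 28 hpf and 2801, 3238 and 3477 CPM at 50 hpf (log2 fold change 0.07). The summed level of the family went from 8981 to 9944 CPM per library at 28 hpf to 4326 to 5297 CPM at 50 hpf. The copies are close in sequence and how the counting treated reads shared between them is not given in the sources used here, so the split between copies is uncertain. The family was set apart after its values were seen.

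**Figure D4:**
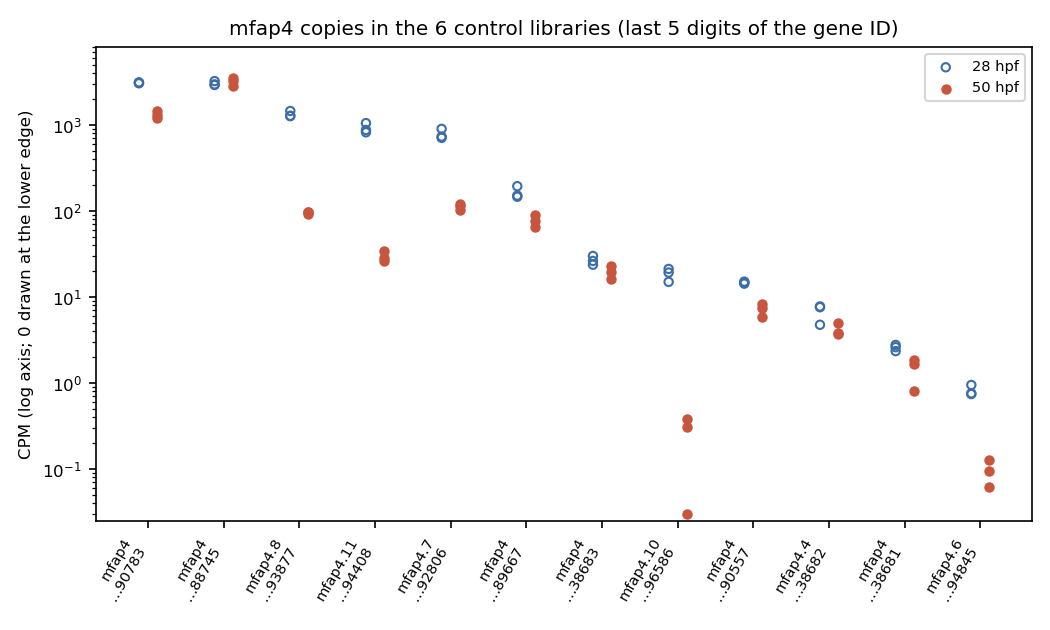
Levels of the 12 tested mfap4 copies (CPM, log axis) in the 3 control libraries at 28 hpf (open blue) and the 3 at 50 hpf (filled red), ordered by their level at 28 hpf. The copy ENSDARG00000088745 overlaps between stages at 2801 to 3477 CPM, while mfap4.8 lies at 1258 to 1445 against 92.5 to 97.4 CPM.

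Among 54 myeloid transcription factors, 7 rose and 4 fell (median log2 fold change 0.13; 11 calls, 5 without the 2 muscle-bearing libraries). The large Maf factor mafa, of a family that controls self-renewal in mammalian macrophages, was at 46.9, 43.9 and 32.6 CPM at 28 hpf and 314, 244 and 238 CPM at 50 hpf (log2 fold change 2.69 ± 0.24, adjusted p = 5.34e-06). The nuclear receptor rxra (ENSDARG00000057737), which partners lipid-sensing receptors, rose from 18.2 ± 3.3 to 60.01 ± 10.6 CPM (log2 fold change 1.72 ± 0.21, adjusted p = 7.41e-05). Runx3 and klf2a, regulators of leukocyte differentiation and quiescence, rose as well. Egr1, an immediate early factor, was at 56.8, 91.3 and 56.7 CPM at 28 hpf and 298, 646 and 187 CPM at 50 hpf. It was highest in replicate 2 at 50 hpf and lost its call without replicate 1 or replicate 3 at 28 hpf (adjusted p up to 0.0109), and without both libraries with muscle transcripts (0.0863). On the falling side stood myb, a factor of haematopoietic progenitors, at 37.9, 38.8 and 31.1 CPM at 28 hpf and 4.06, 5.74 and 4.73 CPM at 50 hpf (log2 fold change -2.88 ± 0.17, adjusted p = 1.51e-07). Tal1, another early blood factor, fell from 37.9 ± 3.44 to 17.2 ± 2.65 CPM (log2 fold change -1.14 ± 0.16, adjusted p = 2.40e-04). Lineage factors of the macrophage itself had smaller changes. Spi1, the master factor of myeloid cells also called Pu.1, went from 1167 ± 23.4 to 669 ± 40.8 CPM (log2 fold change -0.80 ± 0.06, adjusted p = 1.65e-06, under the fold limit). Its paralogue spi1a went from 1399 ± 25.4 to 1676 ± 95.6 CPM (log2 fold change 0.26 ± 0.06, adjusted p = 0.0108). The factor irf8, which zebrafish macrophages require, went from 425 ± 20.9 to 350.0 ± 21.5 CPM (log2 fold change -0.28 ± 0.07, adjusted p = 0.0131).

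Among 39 tested genes linked to microglia and their colonisation of tissues, 14 rose and 0 fell (median log2 fold change 0.78; 6 calls without the 2 libraries with muscle transcripts). The neural marker list was higher at 50 hpf too, as given above, and its part in these values was not tested. The chemokine ccl34b.1 was at 8.79, 12.7 and 13.2 CPM at 28 hpf and 342, 358 and 338 CPM at 50 hpf (log2 fold change 4.90 ± 0.21, adjusted p = 1.33e-08). Galectin lgals9l1 was at 256, 285 and 251 CPM at 28 hpf and 783, 758 and 832 CPM at 50 hpf (log2 fold change 1.58 ± 0.13, adjusted p = 2.68e-06). The groups were far apart for both, in all libraries. Apolipoprotein apoeb, a lipid carrier that marks zebrafish microglia, was at 41.1, 8.91 and 2.23 CPM at 28 hpf and 271, 237 and 167 CPM at 50 hpf (log2 fold change 3.71 ± 0.78, adjusted p = 0.00384). The 28 hpf libraries differed more than 10-fold in apoeb between replicates 1 and 3, and the call was lost without replicate 2 at 28 hpf, without replicate 1 or 2 at 50 hpf (adjusted p up to 0.0254) or without both libraries with muscle transcripts (0.0713). The ATP-gated channel p2rx7 rose from 15.2 ± 1.9 to 62.4 ± 8.85 CPM (log2 fold change 2.03 ± 0.16, adjusted p = 1.82e-06). The glutamate transporter slc1a3 (ENSDARG00000104431) rose from 34.7 ± 1.37 to 88.1 ± 12.23 CPM (log2 fold change 1.34 ± 0.12, adjusted p = 3.86e-06). The purinergic receptor p2ry12, a marker of resident microglia, was at 66.7, 83.5 and 72.9 CPM at 28 hpf and 62.5, 70.18 and 69 CPM at 50 hpf, with overlapping stages and no call (log2 fold change -0.15 ± 0.11, adjusted p = 0.362).

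Genes of engulfment changed in both directions. Of 39 tested engulfment and scavenger genes 9 rose and 4 fell (median log2 fold change 0.38; 13 calls, 9 without the 2 muscle-bearing libraries). Stabilin stab1, which binds phosphatidylserine and modified lipoproteins, was at 25.8, 24.1 and 18.3 CPM at 28 hpf and 408, 279 and 327 CPM at 50 hpf (log2 fold change 3.90 ± 0.19, adjusted p = 3.17e-08). The phosphatidylserine-sensing receptor tyrosine kinase mertka rose from 41.1 ± 1.61 to 109 ± 12.6 CPM (log2 fold change 1.41 ± 0.11, adjusted p = 1.61e-06). The integrin subunit itgb5 rose from 10.5 ± 3.78 to 69.9 ± 7.1 CPM (log2 fold change 2.74 ± 0.24, adjusted p = 4.09e-06) and the bacteria-binding scavenger receptor marco from 219 ± 13.2 to 462 ± 20.5 CPM (log2 fold change 1.08 ± 0.07, adjusted p = 2.46e-07). Each of these 4 was higher in every 50 hpf library than in any at 28 hpf. The 4 members that fell were annexin anxa2, whose call was lost without any 1 control library other than replicate 2 at 50 hpf (adjusted p up to 0.0240), and the calreticulins calr, calr3a and calr3b. Calreticulin is an engulfment signal when on the surface, and within the cell a chaperone of the endoplasmic reticulum (ER), where it is described again below.

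Complement component C1q, an opsonin for dying cells that tissue macrophages produce, rose in all 3 of its chains. C1qa was at 10.5, 9.33 and 9.62 CPM at 28 hpf and 36.6, 44.2 and 39.3 CPM at 50 hpf (log2 fold change 2.03 ± 0.14, adjusted p = 4.43e-07). C1qb was at 36.2, 36 and 30.9 CPM at 28 hpf and 87.8, 100 and 102 CPM at 50 hpf (log2 fold change 1.49 ± 0.11, adjusted p = 8.33e-07). C1qc was at 31, 30.1 and 31.8 CPM at 28 hpf and 167, 180.4 and 186 CPM at 50 hpf (log2 fold change 2.52 ± 0.14, adjusted p = 9.41e-08). All 3 chains were higher in every 50 hpf library. The complement list held 4 genes that rose and 1 that fell among 21 tested members (median log2 fold change 0.24; 5 calls, 3 without the 2 libraries with muscle transcripts). Properdin cfp, which stabilises the alternative pathway convertase, was the fourth, at 228, 243 and 275 CPM at 28 hpf and 709.8, 546 and 499 CPM at 50 hpf (log2 fold change 1.23 ± 0.18, adjusted p = 3.27e-04). The factor B-like gene cfbl fell from 134 ± 13.3 to 58 ± 0.972 CPM (log2 fold change -1.204 ± 0.15, adjusted p = 1.06e-04).

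Lysosomal genes that rose did so mostly by less than the fold limit. Of 80 tested members 7 rose and 0 fell (median log2 fold change 0.26; 7 calls also without the 2 muscle-bearing libraries), a share of 8.75% against the 6.29% of all genes. Without the fold limit 24 members were higher and 3 lower at an adjusted p under 0.01, against 6.98% and 6.88% of all genes. Without overlap between the stages 43 were higher and 5 lower, against 26.3% and 23.0% of all tested genes. Cathepsin ctsl.1 was at 54.2, 79.5 and 44.9 CPM at 28 hpf and 730.1, 869 and 652 CPM at 50 hpf (log2 fold change 3.65 ± 0.20, adjusted p = 1.02e-07). The collagen-degrading cathepsin ctsk was at 51.4, 60.8 and 59.9 CPM at 28 hpf and 520.3, 812 and 599 CPM at 50 hpf (log2 fold change 3.49 ± 0.20, adjusted p = 1.39e-07). Both were raised more than 10-fold with the stages far apart. Cathepsin ctsf rose from 54.2 ± 7.17 to 164 ± 4.67 CPM (log2 fold change 1.59 ± 0.12, adjusted p = 1.09e-06). Progranulin grna, a lysosomal and secreted growth factor, rose from 628 ± 25.9 to 1421 ± 62.3 CPM (log2 fold change 1.18 ± 0.07, adjusted p = 1.02e-07). The acid nuclease dnase2, which digests the DNA of engulfed cells, rose from 21.9 ± 1.99 to 61.5 ± 4.105 CPM (log2 fold change 1.49 ± 0.14, adjusted p = 8.40e-06). Other hydrolases with high counts were not called. Cathepsin B (ctsb) went from 3105 ± 275 to 3223 ± 104 CPM (log2 fold change 0.05), legumain lgmn from 2457 ± 47.2 to 2459 ± 120.2 CPM (0.00) and prosaposin psap from 3543 ± 389 to 4092 ± 245 CPM (0.21). None of 25 tested subunits of the lysosomal proton pump was called (median log2 fold change -0.36), and 17 of them were lower in all 50 hpf than in all 28 hpf libraries, against 23.0% of all tested genes.

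Genes of antigen presentation had a median log2 fold change of 1.59, the highest among the gene lists other than markers of other cell types. Of 28 tested members 12 rose and 0 fell (6 calls without the 2 libraries with muscle transcripts). The MHC class II chain mhc2d4b was at 119, 131 and 111 CPM at 28 hpf and 755, 796 and 756 CPM at 50 hpf (log2 fold change 2.68 ± 0.10, adjusted p = 3.54e-09). The class I heavy chain mhc1zba was at 129.8, 129 and 112 CPM at 28 hpf and 385, 388 and 371 CPM at 50 hpf (log2 fold change 1.63 ± 0.09, adjusted p = 1.02e-07). The stages were apart by several times the spread for both. Beta-2-microglobulin b2ml, the partner of class I chains, rose from 36.9 ± 2.94 to 116 ± 4.45 CPM (log2 fold change 1.66 ± 0.18, adjusted p = 3.07e-05). The proteasome activator subunit psme2 rose from 9.22 ± 1.65 to 41.9 ± 8.72 CPM (log2 fold change 2.18 ± 0.19, adjusted p = 3.62e-06) and tapasin tapbp.1 from 11.8 ± 1.65 to 31.2 ± 4.47 CPM (log2 fold change 1.399 ± 0.21, adjusted p = 4.07e-04). The class II invariant chains cd74a and cd74b were at their floor of detection at 28 hpf and low at 50 hpf, at 3.75, 3.88 and 4.86 CPM for cd74a. Against a floor of 3 counts per library this was an at least 19.8-fold higher level. The protease ctss2.1, which processes antigen, was abundant and was not called, with a change from 724 ± 55.9 to 790.5 ± 41.2 CPM (log2 fold change 0.13). MHC genes are polymorphic and come in close copies, so their counts are uncertain where a pool differed from the reference genome.

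Of 26 tested interferon-response genes 6 rose and 0 fell (median log2 fold change 0.49). Xaf1, an interferon-induced pro-apoptotic factor, rose from 2.94 ± 0.6 to 22.5 ± 0.543 CPM (log2 fold change 2.94 ± 0.31, adjusted p = 2.09e-05). The guanylate-binding protein gbp2 rose from 56.6 ± 4 to 122 ± 13 CPM (log2 fold change 1.11 ± 0.10, adjusted p = 5.40e-06). The count was 2 without replicate 1 at 28 hpf, 3 without replicate 3 at 28 hpf, 3 without replicate 1 at 50 hpf and 2 without both libraries with muscle transcripts. Of 33 pattern recognition genes 4 rose and 1 fell (median log2 fold change 0.27; 5 calls, 4 without these 2 libraries). Sting1, the sensor of cyclic dinucleotides, was at 16.8, 18.2 and 14 CPM at 28 hpf and 59.7, 58.8 and 60.1 CPM at 50 hpf (log2 fold change 1.87 ± 0.12, adjusted p = 2.77e-07). The lipopeptide receptor tlr1 rose from 22.8 ± 2.56 to 56.1 ± 9.73 CPM (log2 fold change 1.298 ± 0.15, adjusted p = 4.71e-05). The adaptor card9, which relays fungal recognition, fell from 594 ± 19.9 to 291 ± 14.9 CPM (log2 fold change -1.03 ± 0.08, adjusted p = 1.90e-06).

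Chemokines rose and fell. Of 37 tested cytokines and chemokines 6 rose and 2 fell (median log2 fold change 0.45; 8 calls also without the 2 muscle-bearing libraries). Beside ccl34b.1, the chemokine ccl35.1 rose from 6.21 ± 0.8 to 40.03 ± 3.6 CPM (log2 fold change 2.68 ± 0.16, adjusted p = 2.17e-07). Ccl34a.3 fell from 19.98 ± 1.04 to 3.83 ± 0.847 CPM (log2 fold change -2.38 ± 0.25, adjusted p = 1.85e-05). Ccl34a.4 was at 446, 494 and 491 CPM at 28 hpf and 200, 277 and 219.9 CPM at 50 hpf (log2 fold change -1.04 ± 0.14, adjusted p = 1.80e-04; -0.96 and under the fold limit without replicate 1 at 50 hpf). These genes lie in families of close copies, which makes their counts uncertain. The growth factor igf2b rose from 66.6 ± 3.71 to 211 ± 14.4 CPM (log2 fold change 1.67 ± 0.13, adjusted p = 1.92e-06) and the death ligand tnfsf10 from 10.2 ± 1.7 to 25.5 ± 0.212 CPM (log2 fold change 1.32 ± 0.13, adjusted p = 8.60e-06).

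Of 58 tested cytokine and chemokine receptors 8 rose and 0 fell (median log2 fold change 0.41). The monocyte chemokine receptor ccr2 was at 2.38, 2.49 and 1.18 CPM at 28 hpf and 29.9, 34.4 and 31 CPM at 50 hpf (log2 fold change 3.99 ± 0.25, adjusted p = 2.89e-07). Ccr9, known in mammals from thymocytes and gut-homing cells, was at 42.8, 41.4 and 30.6 CPM at 28 hpf and 138, 197 and 130.0 CPM at 50 hpf (log2 fold change 2.02 ± 0.22, adjusted p = 3.03e-05). The common cytokine chain il2rga rose from 23.4 ± 1.71 to 72 ± 0.25 CPM (log2 fold change 1.62 ± 0.19, adjusted p = 5.84e-05), with 3 nearly equal values at 50 hpf. The chemokine receptor cxcr3.2, at high counts, was not called, with a change from 735 ± 12 to 763 ± 44.1 CPM (log2 fold change 0.05). The count of 8 fell to 5 without replicate 1 or replicate 2 at 28 hpf, to 4 without replicate 1 at 50 hpf and to 3 without both libraries with muscle transcripts.

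Targets of the glucocorticoid receptor and of the circadian clock rose. Of 48 tested members 16 rose and 0 fell (33.3% against 6.29% of all genes; median log2 fold change 1.07), and 44 of 48 had a value above 0. Fkbp5, a receptor co-chaperone that glucocorticoids induce, was at 14.2, 9.26 and 11.7 CPM at 28 hpf and 332, 391 and 329 CPM at 50 hpf (log2 fold change 4.91 ± 0.17, adjusted p = 3.03e-09). The Krüppel-like factor klf9 was at 0, 0.0691 and 0.31 CPM at 28 hpf and 17.2, 22.5 and 15.2 CPM at 50 hpf (log2 fold change 6.97 ± 0.48, adjusted p = 6.08e-07). The anti-inflammatory leucine zipper tsc22d3 (GILZ) was at 32.8, 41 and 33 CPM at 28 hpf and 97.1, 127 and 103 CPM at 50 hpf (log2 fold change 1.61 ± 0.14, adjusted p = 4.52e-06). In all 3 genes every library at 50 hpf was above every library at 28 hpf, and for klf9 the 28 hpf libraries were near or at 0. The glucocorticoid receptor nr3c1 itself went from 72 ± 0.731 to 117 ± 7.69 CPM (log2 fold change 0.70 ± 0.11, adjusted p = 4.17e-04, under the fold limit).

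Among the clock genes of this list, the Rev-Erb repressor nr1d2a was at 17.6, 12.4 and 11.9 CPM at 28 hpf and 158, 164 and 162 CPM at 50 hpf (log2 fold change 3.53 ± 0.16, adjusted p = 2.00e-08). Its relative nr1d2 was at 34.3, 23.8 and 23.1 CPM at 28 hpf and 102, 90.2 and 97.4 CPM at 50 hpf (log2 fold change 1.84 ± 0.16, adjusted p = 3.50e-06). The repressor bhlhe40 rose from 32.1 ± 3.08 to 111 ± 1 CPM (log2 fold change 1.79 ± 0.12, adjusted p = 5.54e-07). The output factor tefb rose from 10.7 ± 0.13 to 41.7 ± 3.34 CPM (log2 fold change 1.96 ± 0.11, adjusted p = 1.43e-07) and the cryptochrome cry3a from 77.2 ± 4.15 to 222 ± 21.7 CPM (log2 fold change 1.52 ± 0.13, adjusted p = 2.98e-06). The light-induced per2 went from 11.9 ± 1.48 to 17.1 ± 4.14 CPM and not called (log2 fold change 0.52). The 2 stages are 22 h apart and the hour of sampling is not given in the sources used here, so clock time and age cannot be told apart. The count of 16 was 8 without the 2 libraries with muscle transcripts, and fkbp5, klf9, tsc22d3, nr1d2a, nr1d2, bhlhe40, tefb and cry3a each remained called there.

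Immediate early genes were less uniform. Of 40 tested members 6 rose and 1 fell (median log2 fold change 0.68), but the count was 4 without replicate 1 and 3 without replicate 3 at 28 hpf, 3 without replicate 2 at 50 hpf and 1 without both libraries with muscle transcripts. The phosphatase dusp1 was at 64.8, 81 and 58.3 CPM at 28 hpf and 140.3, 259.8 and 127 CPM at 50 hpf. The pro-apoptotic BH3 gene pmaip1 was at 22.1, 29.98 and 20.9 CPM at 28 hpf and 61.1, 146 and 43 CPM at 50 hpf. Both were highest in replicate 2 at 50 hpf, as was egr1. The call of dusp1 was lost without replicate 1 or 3 at 28 hpf or replicate 2 at 50 hpf (adjusted p up to 0.0161), and that of pmaip1 without any 28 hpf library or replicate 2 at 50 hpf (up to 0.0314). The stress factor atf3 fell, from 64.8 ± 2.51 to 25.3 ± 7.14 CPM (log2 fold change -1.36 ± 0.17, adjusted p = 1.01e-04).

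Of 54 tested genes of TGF-beta signalling 8 rose and 0 fell (median log2 fold change 0.45; 5 calls without replicate 2 at 28 hpf or without replicate 1 at 50 hpf, and 3 without both libraries with muscle transcripts). The ligand subunit inhbb (activin beta B) was at 4.43, 0.691 and 1.3 CPM at 28 hpf and 39.9, 53.3 and 58.7 CPM at 50 hpf (log2 fold change 4.59 ± 0.57, adjusted p = 8.32e-05). The type I receptor acvrl1 was at 21.5, 8.91 and 11.7 CPM at 28 hpf and 104, 95.2 and 99.2 CPM at 50 hpf (log2 fold change 2.83 ± 0.31, adjusted p = 2.73e-05). The SMAD co-repressor skil rose from 69.9 ± 1.2 to 206 ± 7.89 CPM (log2 fold change 1.56 ± 0.14, adjusted p = 7.08e-06). The type II receptor tgfbr2 (ENSDARG00000034541) rose from 4.59 ± 1.57 to 14.8 ± 0.368 CPM (log2 fold change 1.68 ± 0.30, adjusted p = 0.00126). A ligand subunit, receptors of both types and an intracellular inhibitor were thus among the 8.

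**Figure D5:**
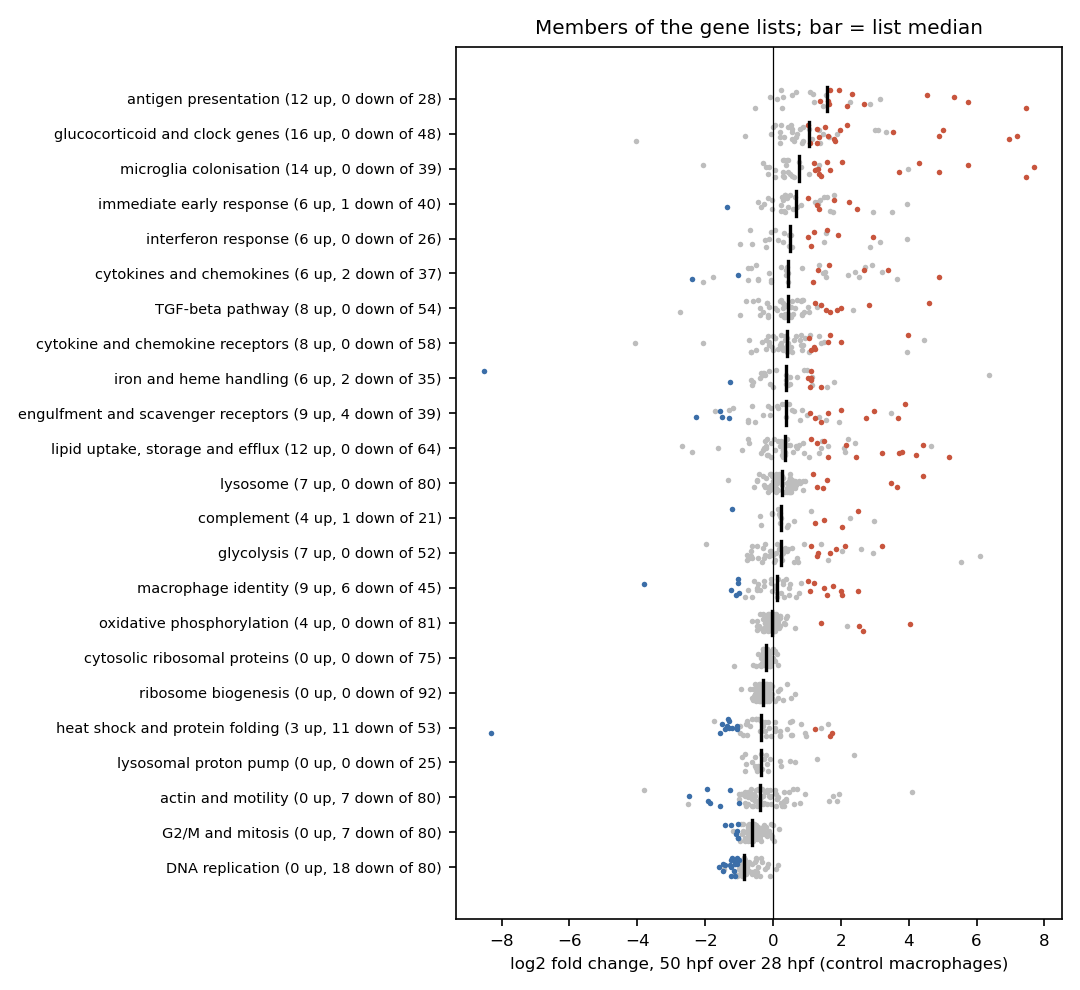
Log2 fold change from 28 to 50 hpf (horizontal axis) of each tested member of 23 gene lists in control macrophages; red points were called higher, blue points called lower, grey points not called, and black bars are list medians. Medians run from 1.59 for antigen presentation (12 up of 28) to -0.86 for DNA replication (18 down of 80).

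Genes of iron export and of iron uptake both rose. Of 35 tested genes 6 rose and 2 fell (median log2 fold change 0.39; 8 calls, 6 without the 2 libraries with muscle transcripts). Ferroportin slc40a1, the iron exporter of macrophages that recycle red cells, was at 634, 676 and 639.7 CPM at 28 hpf and 1869, 1555 and 1762 CPM at 50 hpf (log2 fold change 1.41 ± 0.09, adjusted p = 2.33e-07). The iron importer slc11a2 rose from 130.0 ± 9.49 to 282 ± 24.9 CPM (log2 fold change 1.12 ± 0.10, adjusted p = 5.74e-06). The transferrin receptor tfr1b rose from 96.9 ± 1.63 to 210.1 ± 5.72 CPM (log2 fold change 1.12 ± 0.11, adjusted p = 1.06e-05). The heme transporter slc48a1 (ENSDARG00000026109) rose from 18.5 ± 2.78 to 39.7 ± 1.4 CPM (log2 fold change 1.101 ± 0.17, adjusted p = 4.13e-04). Heme oxygenase hmox1 was at 378, 477 and 369.8 CPM at 28 hpf and 639, 763 and 591 CPM at 50 hpf (log2 fold change 0.70 ± 0.14, adjusted p = 0.00276, under the fold limit). All 3 transporters and the receptor were higher in every 50 hpf library. The heme synthesis enzymes did not move together. Alas1 was called higher, with a log2 fold change of 1.03 close to the fold limit. It was under that limit without replicate 1 or 3 at 28 hpf or replicate 2 or 3 at 50 hpf (0.88 in the fit nearest to 0). Urod fell from 156 ± 11.6 to 64.2 ± 6.38 CPM (log2 fold change -1.28 ± 0.11, adjusted p = 4.17e-06). Urod is also in the erythroid marker list, where it made up most of the fall of the sum.

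Genes of lipid handling rose in 12 of 64 tested members, with 0 that fell (median log2 fold change 0.36; 4 calls without the 2 libraries with muscle transcripts). The lipase lipg was at 2.53, 2.07 and 1.8 CPM at 28 hpf and 38.4, 38.3 and 41.6 CPM at 50 hpf (log2 fold change 4.21 ± 0.65, adjusted p = 4.65e-04). Carnitine palmitoyltransferase cpt1b, which admits fatty acids to mitochondria, was at 2.38, 0.967 and 2.05 CPM at 28 hpf and 29, 22.3 and 23.6 CPM at 50 hpf (log2 fold change 3.80 ± 0.43, adjusted p = 4.17e-05). The lipase inhibitor angptl4 was at 13.3, 11.8 and 6.76 CPM at 28 hpf and 51.9, 51.4 and 36.8 CPM at 50 hpf (log2 fold change 2.14 ± 0.23, adjusted p = 2.89e-05). All 3 were low at 28 hpf and several-fold higher at 50 hpf in each library, although muscle also expresses cpt1b and its value without the 2 muscle-bearing libraries was 3.68 (adjusted p = 0.00222). Of 27 tested cholesterol synthesis genes 1 rose and 0 fell (median log2 fold change 0.08), and that call was lost without any 1 control library.

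Of 52 tested glycolysis genes 7 rose and 0 fell (median log2 fold change 0.22; 4 calls and a median of -0.08 without the 2 libraries with muscle transcripts). Without the fold limit 9 members were higher and 9 lower at an adjusted p under 0.01, against 6.98% and 6.88% of all genes. Pfkfb4, which makes the activator of phosphofructokinase, was at 142, 149.7 and 131 CPM at 28 hpf and 499.7, 512 and 533 CPM at 50 hpf (log2 fold change 1.87 ± 0.13, adjusted p = 4.51e-07). The pyruvate dehydrogenase kinase pdk2 (ENSDARG00000020876), which limits the entry of pyruvate into mitochondria, was at 14.8, 9.74 and 11.5 CPM at 28 hpf and 114, 124 and 98 CPM at 50 hpf (log2 fold change 3.22 ± 0.18, adjusted p = 9.49e-08). Its relative pdk4 rose from 11.8 ± 0.931 to 29 ± 0.982 CPM (log2 fold change 1.297 ± 0.17, adjusted p = 1.08e-04). Enolase eno1 (ENSDARG00000022456) rose from 87.5 ± 1.43 to 217 ± 44.1 CPM (log2 fold change 1.31 ± 0.16, adjusted p = 7.03e-05). Of 81 tested genes of oxidative phosphorylation 4 rose and 0 fell (4.94%, near the 6.29% of all genes; median log2 fold change -0.02; 3 calls without these 2 libraries). These included the subunit isoforms ndufa4b, from 21 ± 2.25 to 133 ± 33.6 CPM (log2 fold change 2.67 ± 0.23, adjusted p = 3.27e-06), and cox6b1, from 5.41 ± 0.995 to 31.5 ± 6.32 CPM (log2 fold change 2.54 ± 0.23, adjusted p = 6.30e-06), both highest in replicate 3 at 50 hpf.

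Genes of DNA replication were lower at 50 hpf almost throughout. Of 80 tested members 18 fell and 0 rose past the thresholds (median log2 fold change -0.86), and 73 of 80 were lower in all 50 hpf libraries than in all 28 hpf libraries, against 23.0% of all tested genes. The fold limit held down the count, since 51 members had an adjusted p under 0.01 with a value below 0, against 6.88% of all genes. Cdc45, of the replicative helicase, was at 48.6, 49.2 and 47.6 CPM at 28 hpf and 19.7, 19.3 and 22.7 CPM at 50 hpf (log2 fold change -1.24 ± 0.15, adjusted p = 8.48e-05). Orc6, of the origin recognition complex, was at 71.3, 61.5 and 67.9 CPM at 28 hpf and 21.1, 30.04 and 24.5 CPM at 50 hpf (log2 fold change -1.41 ± 0.18, adjusted p = 1.25e-04). The ribonucleotide reductase subunit rrm2 (ENSDARG00000020711) was at 256, 201 and 212 CPM at 28 hpf and 67.6, 91.3 and 63.2 CPM at 50 hpf (log2 fold change -1.59 ± 0.19, adjusted p = 5.44e-05). The stages did not overlap for any of them. Helicase subunit mcm5 was at 514, 460.4 and 460.1 CPM at 28 hpf and 195, 239.8 and 272 CPM at 50 hpf (log2 fold change -1.02 ± 0.13, adjusted p = 1.09e-04; under the fold limit, at -0.92 in the fit nearest to 0, without replicate 1 at 28 hpf or replicate 1 at 50 hpf). The clamp pcna was at 1063, 1125 and 1040 CPM at 28 hpf and 538, 703 and 726 CPM at 50 hpf (log2 fold change -0.71 ± 0.12, adjusted p = 8.44e-04, under the fold limit). Without the 2 libraries with muscle transcripts 5 members were called, with a median of -0.81.

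In the mitotic list 7 of 80 tested members fell and 0 rose (median log2 fold change -0.61), 63 of 80 were lower in every 50 hpf library, against 23.0% of all tested genes, and 0 were called without the 2 muscle-bearing libraries (median -0.65). The cyclin-dependent kinase subunit cks1b fell from 83.4 ± 7.5 to 39.2 ± 2.91 CPM (log2 fold change -1.09 ± 0.15, adjusted p = 1.46e-04). The late cell cycle factor mybl2 fell from 83.4 ± 4.1 to 40.5 ± 2.18 CPM (log2 fold change -1.04 ± 0.12, adjusted p = 4.17e-05). The proliferation marker mki67 was at 236, 292 and 276 CPM at 28 hpf and 290.3, 199.8 and 178 CPM at 50 hpf, with overlapping stages and no call (log2 fold change -0.27 ± 0.21, adjusted p = 0.403). Of 50 cell cycle inhibitors and p53 targets 8 rose and 0 fell (median log2 fold change 0.34; 4 calls without the 2 muscle-bearing libraries). The inhibitor cdkn1b (ENSDARG00000029018) rose from 8.67 ± 1.48 to 23 ± 1.57 CPM (log2 fold change 1.41 ± 0.17, adjusted p = 5.96e-05) and the forkhead factor foxo3b from 50.7 ± 1.18 to 142 ± 12.4 CPM (log2 fold change 1.49 ± 0.11, adjusted p = 8.52e-07). The stress-induced sesn1 rose from 41.8 ± 7.52 to 126 ± 14.3 CPM (log2 fold change 1.598 ± 0.15, adjusted p = 8.75e-06). The G1 cyclin ccnd1 went the other way from the replication genes, from 225 ± 14.7 to 362 ± 12.8 CPM (log2 fold change 0.68 ± 0.11, adjusted p = 6.51e-04, under the fold limit).

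No gene of ribosome production was called. None of 92 tested ribosome biogenesis genes and none of 75 cytosolic ribosomal protein genes was called, with medians of -0.28 and -0.19 on the log2 scale. At an adjusted p under 0.01 without the fold limit, 11 biogenesis genes were lower and 2 higher, against 6.88% and 6.98% of all genes. Of the 92, 56 were lower in every 50 hpf library, against 23.0% of all tested genes, and 8 had a value above 0. A call of 1 biogenesis gene appeared without replicate 1 at 28 hpf or without replicate 2 at 50 hpf.

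Chaperones of the ER were among the genes that fell. Of 53 tested genes of heat shock and protein folding 11 fell and 3 rose (26.4% against 6.29% of all genes; median log2 fold change -0.36; 14 calls, 13 without the 2 libraries with muscle transcripts). Calreticulin calr3b was at 2128, 2163 and 2109 CPM at 28 hpf and 716, 699 and 755 CPM at 50 hpf (log2 fold change -1.56 ± 0.09, adjusted p = 1.59e-07). The disulfide isomerase pdia4 was at 601, 582 and 618 CPM at 28 hpf and 233, 251 and 247 CPM at 50 hpf (log2 fold change -1.303 ± 0.06, adjusted p = 2.77e-08). Its relative pdia3 was at 1752, 1823 and 1918 CPM at 28 hpf and 809, 910.1 and 909.9 CPM at 50 hpf (log2 fold change -1.06 ± 0.07, adjusted p = 6.40e-07). The replicates were tight and the stages far apart. The ER stress-responsive cofactor creld2 fell from 134 ± 6.19 to 50.3 ± 8.52 CPM (log2 fold change -1.41 ± 0.12, adjusted p = 4.55e-06). Manf, another such factor, fell from 241 ± 11.6 to 105 ± 13.5 CPM (log2 fold change -1.2 ± 0.10, adjusted p = 3.35e-06), and sdf2l1 from 160.1 ± 5.85 to 63.8 ± 8.68 CPM (log2 fold change -1.33 ± 0.12, adjusted p = 6.70e-06). Cytosolic chaperones were not called, with hspa8 going from 4874 ± 132 to 5100 ± 327 CPM (log2 fold change 0.07) and hsp90ab1 from 2487 ± 77.9 to 2378 ± 88.2 CPM (-0.06). The 3 genes that rose were ero1a, an ER oxidase, from 10.1 ± 1.5 to 32.4 ± 4.4 CPM (log2 fold change 1.68 ± 0.16, adjusted p = 1.05e-05), chac1, from 92.3 ± 7.77 to 217 ± 40.9 CPM (log2 fold change 1.23 ± 0.12, adjusted p = 1.36e-05), and the stress factor ddit3. The level of ddit3 was 31.6 ± 3.3 CPM at 28 hpf (mean ± SD, n = 3) and 92.6, 169.7 and 56.6 CPM at 50 hpf, highest in replicate 2. The call of ddit3 was lost without replicate 1 or 3 at 28 hpf (adjusted p up to 0.0137) and without both libraries with muscle transcripts (0.168).

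Of 80 tested genes of actin and motility 7 fell and 0 rose (8.75%; median log2 fold change -0.37; 6 calls without the 2 libraries with muscle transcripts). Without the fold limit 36 members were lower and 4 higher at an adjusted p under 0.01, against 6.88% and 6.98% of all genes. Without overlap between the stages 49 were lower and 10 higher, against 23.0% and 26.3% of all tested genes. Marcksl1b, which links actin to the membrane, was at 1041, 1034 and 1079 CPM at 28 hpf and 261, 314 and 293 CPM at 50 hpf (log2 fold change -1.86 ± 0.12, adjusted p = 4.15e-07). The myosin light chain myl9 was at 44.9, 48.4 and 49.6 CPM at 28 hpf and 9.31, 8.61 and 7.61 CPM at 50 hpf (log2 fold change -2.48 ± 0.16, adjusted p = 2.55e-07). Vinculin vcl (ENSDARG00000098695), of focal adhesions, fell from 34 ± 0.867 to 8.81 ± 0.526 CPM (log2 fold change -1.95 ± 0.19, adjusted p = 1.02e-05). Thymosin tmsb1, which binds actin monomers, fell from 211 ± 17 to 71.7 ± 5.63 CPM (log2 fold change -1.56 ± 0.12, adjusted p = 1.18e-06). The bundling protein lcp1 (L-plastin), a common antigen for staining zebrafish leukocytes, was at 3655, 3783 and 3647 CPM at 28 hpf and 1669, 1907 and 1953 CPM at 50 hpf, with a value at the fold limit (log2 fold change -1.004 ± 0.07, adjusted p = 1.03e-06) that was under it without replicate 2 at 28 hpf or replicate 1 at 50 hpf (-0.96 in the fit nearest to 0). The gelsolin family member scinlb fell as well, at 500.2, 466 and 537 CPM at 28 hpf and 76.6, 119.6 and 84.9 CPM at 50 hpf (log2 fold change -2.42 ± 0.17, adjusted p = 6.08e-07). The cytoplasmic actin actb1 went from 26120 ± 299.8 to 16340 ± 1425 CPM and coronin coro1a from 5158 ± 136 to 3116 ± 304 CPM, with log2 fold changes of -0.68 and -0.73, under the fold limit.

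Adhesion molecules rose and fell. Of 78 tested integrins and adhesion genes 9 rose and 2 fell (median log2 fold change 0.47; 11 calls, 8 without the 2 libraries with muscle transcripts, with a median of 0.16). Beside pcdh2ac, mcam and robo4, the immunoglobulin adhesion molecule icam3 was at 8, 10.4 and 6.51 CPM at 28 hpf and 78.9, 72.7 and 68.8 CPM at 50 hpf (log2 fold change 3.14 ± 0.31, adjusted p = 1.27e-05). The integrin alpha chain itgae.1 was at 82.5, 88 and 99.8 CPM at 28 hpf and 292, 287 and 350.3 CPM at 50 hpf (log2 fold change 1.78 ± 0.16, adjusted p = 5.20e-06). E-cadherin cdh1 fell from 88.1 ± 12.3 to 23.2 ± 0.679 CPM (log2 fold change -1.92 ± 0.13, adjusted p = 3.82e-07). Cdh1 is also a keratinocyte marker, as is krt8, which fell from 469.9 ± 28.1 to 179.6 ± 12 CPM (log2 fold change -1.39 ± 0.10, adjusted p = 8.54e-07). The leukocyte integrin itgb2 did not pass the test, with levels from 1145 ± 28.6 to 1264 ± 112 CPM (log2 fold change 0.14).

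Of 41 tested matrix proteases and inhibitors 6 rose and 3 fell (median log2 fold change 0.43; 9 calls, 4 without the 2 muscle-bearing libraries). The membrane collagenase mmp14 (ENSDARG00000008388) was at 6.89, 3.52 and 6.58 CPM at 28 hpf and 91.6, 69.8 and 71.5 CPM at 50 hpf (log2 fold change 3.78 ± 0.23, adjusted p = 2.29e-07). The cathepsin inhibitor cst3 rose from 89.6 ± 8.75 to 218 ± 15.9 CPM (log2 fold change 1.28 ± 0.11, adjusted p = 2.82e-06). The leukocyte protease mmp25b fell from 71.2 ± 4.64 to 30.8 ± 1.91 CPM (log2 fold change -1.21 ± 0.14, adjusted p = 5.38e-05). Adam8a, another, fell from 199 ± 5.32 to 89.99 ± 8.76 CPM (log2 fold change -1.14 ± 0.09, adjusted p = 2.02e-06). Mmp25b is in the neutrophil list as well. The collagen gene col1a2, which rose with the mesenchyme markers, was at 1.19, 6.08 and 4.03 CPM at 28 hpf and 110.1, 68.1 and 30.4 CPM at 50 hpf, and its call was lost without any 1 of the control libraries other than replicate 3 at 50 hpf (adjusted p up to 0.0266).

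Of the lists not described so far, immune receptor signalling had 1 gene that rose and 2 that fell among 48 tested, translation factors and tRNA synthetases 1 that rose among 72, and lipid mediators 3 that rose and 1 that fell among 41. Their shares of 6.25%, 1.39% and 9.76% compare with 6.29% of all genes. Without the fold limit, at an adjusted p under 0.01, 11 immune receptor signalling genes were lower and 2 higher. For translation factors and tRNA synthetases these counts were 14 and 2, and for lipid mediators 6 and 6. Of all genes 6.88% were lower and 6.98% higher at that threshold. In the same order, 17, 35 and 13 members were lower in every 50 hpf library, against 23.0% of all tested genes. Higher were 7, 7 and 13, against 26.3%.

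The phagocyte NADPH oxidase makes superoxide. Its membrane subunit cybb was at 2462, 2318 and 2447 CPM at 28 hpf and 1354, 1249 and 1380 CPM at 50 hpf (log2 fold change -0.86 ± 0.07, adjusted p = 1.90e-06, under the fold limit). Its partner cyba went from 362 ± 15.2 to 356 ± 41.5 CPM (log2 fold change -0.02). The 2 subunits of the same membrane complex thus differed, cybb being lower in every 50 hpf library and cyba overlapping between the stages.

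Whether the change with age was the same without Csf1r was examined in the csf1rDM libraries, which share no library with the control comparison. Both comparisons took the spread of each gene from 1 fit of all 12 libraries, so their calls were not independent. The csf1rDM pools held 35 embryos at 28 hpf and 70 at 50 hpf, so a difference in their change with age cannot be told apart from pool size. Replicate correlations in csf1rDM were 0.919 to 0.953 at 28 hpf and 0.922 to 0.928 at 50 hpf. At 50 hpf, 26548 genes had a count in csf1rDM replicate 1, against 18042 and 20272 in replicates 2 and 3. In csf1rDM 1353 genes were called (8.24% of those tested, 4.70% higher and 3.54% lower at 50 hpf). The sign in csf1rDM was that in control for 1014 of the 1033 control calls (98.2%). The same share over all tested genes was not computed. Called in both were 686 genes, which is 66.4% of the control calls and 50.7% of the csf1rDM calls. The difference between genotypes in the change with age passed the thresholds for 26 genes (0.158% of those tested; 0.0913% with a higher and 0.0670% with a lower value in csf1rDM), of which 12 were among the 1033. This small count moved with single libraries: it was between 5 and 9 without any 1 of the 6 control libraries and between 11 and 17 without any 1 of the csf1rDM libraries other than replicates 2 and 3 at 50 hpf. The class II gene mhc2d4b was the clearest: it rose by 2.68 in control and by 0.42 in csf1rDM on the log2 scale (difference -2.26 ± 0.13, adjusted p = 5.23e-06). Its level differed already at 28 hpf, at 397 ± 48.4 CPM in csf1rDM against 120 ± 9.88 CPM in control (mean ± SD, n = 3). At 50 hpf it was 529 ± 25.5 CPM in csf1rDM against 769 ± 23.1 CPM in control. The uncertainty of MHC counts given above holds for this comparison too. Marco rose more in csf1rDM, by 2.48 against 1.08 (difference 1.41 ± 0.09, adjusted p = 1.95e-05). The mfap4 copies mfap4.8, mfap4.11 and mfap4.7 fell in both genotypes and by less in csf1rDM, with values of -2.27, -3.07 and -1.62. The medians of the DNA replication list were -0.86 in control and -1.42 in csf1rDM, with 18 and 59 members called lower and 0 members with a called difference between the genotypes. Those of the mitotic list were -0.61 and -1.41, with 7 and 61 members called lower and 2 members, ttk and ccnb3, with a called difference.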

How the data were processed

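Libraries of sorted GFP-positive macrophages were made with SMART-seq v4 and sequenced as 75 bp reads. Per the study's methods, cells from embryos dissociated on ice were gated on myeloid scatter, singlets, viability dye and GFP. The deposited file holds raw gene counts made by the authors, without normalization, on GRCz10 with STAR 2.5.4b; the submitters' processing notes also name CASAVA 1.8, cutadapt, Cufflinks 2.2.1, HTSeq 0.11.0 and edgeR, and the gene annotation and strand setting of the counting are not given in the sources used here. Reads were counted without molecular identifiers. Symbols came from an ID table that matched 27000 of 35117 IDs (76.9%).

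All 12 libraries were fitted together with the edgeR 4.0.16 quasi-likelihood test (R 4.3.3; TMM scaling, filterByExpr, 16429 genes tested), with the contrast of control 50 hpf minus control 28 hpf. A gene was called at a Benjamini-Hochberg adjusted p under 0.01 and an absolute log2 fold change above 1, and standard errors were derived from the F statistic. A level of 0 was set against a floor of 3 counts per library. Genes were named by rule: the 10 largest called changes in each direction at 10 CPM or more, the same at 100 CPM or more, and defining markers. The rule also took every called member of each list at 10 CPM or more. To these it added the 4 members of each list with the highest mean CPM, called or not. Not all genes that met the rule are described. Irf8, p2ry12, nr3c1, per2, mki67, cd74a and cd74b, some further list members without values, and the genes of the closing observations were added after their values were seen. The comparison, the 33 gene lists and the 15 marker lists were chosen with earlier results of these data known, and lists share members. Alternatives used DESeq2 1.42.0, limma 3.58.1, other scaling, filters and thresholds, and fits without single libraries. The test was checked on simulated counts. A result that involves a withheld item is not reported here.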

Additional observations from a re-analysis of the deposited data

Results flagged for a closer look

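Of the 26 genes that differed, 11 were among the genes named by rule: for these the change from 28 to 50 hpf differed between control and csf1rDM macrophages by a test of the difference itself (edgeR, adjusted p under 0.01 and a difference above 1 on the log2 scale). The differences below are csf1rDM minus control in log2 fold change, and no explanation of them was tested.

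Several control changes were smaller in csf1rDM. The MHC class II chain mhc2d4b had a difference of -2.26 (control 2.68, csf1rDM 0.42), with 397 CPM in csf1rDM against 120 CPM in control already at 28 hpf. The secreted phosphoprotein gene scpp8 had a difference of 3.22 (control -3.88, csf1rDM -0.67), and the gelsolin family member scinlb one of 2.199 (-2.42 and -0.22). The copies mfap4.11, mfap4.8 and mfap4.7 differed by 1.88, 1.53 and 1.18. Thy1, a surface glycoprotein, differed by 1.52 (-2.29 and -0.77).

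In the other genes the csf1rDM change was larger or of another sign. Marco, a scavenger receptor, differed by 1.41 (1.08 and 2.48). The NADPH oxidase subunit ncf1 differed by -1.08 (-0.61 and -1.69). Insig1, which holds back cholesterol synthesis, differed by -1.21 (0.22 and -0.99), and the matrix proteoglycan lum, also a mesenchyme marker, by -1.50 (1.17 and -0.33). The control call of lum was lost without both libraries with muscle transcripts (adjusted p = 0.0205).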

How the results depend on the processing

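Between 28 and 50 hpf, 1033 genes were called in control macrophages. The count was 887 with a replicate block, 1404 with DESeq2, 1118 with limma-voom, 1032 with RLE size factors (65.2% higher against 68.2%), 1121 without a filter and 953 with a stricter one. It was 3839 at an adjusted p under 0.05 with no fold limit, 322 when tested against a fold of 2, and 1644 in a fit of the 6 control libraries alone. Leaving out 1 library gave 781 to 1117. Without both control libraries with muscle transcripts, an alternative chosen after seeing the data, it was 465. The 26 genes whose change differed between genotypes became 133 with DESeq2, 57 without a filter, 51 with the stricter filter, 5 with the replicate block, 151 at an adjusted p under 0.05 with no fold limit, 2 when tested against a fold of 2, and 5 to 29 without 1 library. Deviations of same-numbered control libraries from their stage means were nearly uncorrelated across genes (correlations 0.0243, 0.00479 and 0.0362). Genes are not independent replicates, so these values cannot exclude a shared origin of same-numbered libraries. Of 220 called genes named by rule, 92 kept their call in all alternatives, 168 in every fit without 1 control library, and 0 changed sign.

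Depth and 3 pools a stage limit what could be called: of 16429 genes tested, 5739 had an unadjusted p under 0.05. Whether genes not called changed by less than 2-fold is not shown. Levels are relative to the total RNA of the sorted cells, and the muscle transcripts of 2 of the 3 libraries at 50 hpf widened the spread of the genes that muscle expresses. Without these 2 libraries the glycolysis median went from 0.22 to -0.08 and the integrin and adhesion median from 0.47 to 0.16.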

Other observations

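Some genes outside the lists changed in every control library and were chosen after their values were seen. Glutamine synthetase glul (ENSDARG00000099776), which takes up ammonia into glutamate, was at 107, 64.9 and 94 CPM at 28 hpf and 1770, 1628 and 1607 CPM at 50 hpf (log2 fold change 4.24 ± 0.27, adjusted p = 3.38e-07), while the second ID of that symbol, ENSDARG00000100003, was not called. Selenoprotein P (selenop), a selenium carrier, was at 686, 636 and 581 CPM at 28 hpf and 3069, 2816 and 3057 CPM at 50 hpf (log2 fold change 2.23 ± 0.09, adjusted p = 9.70e-09). Both were several-fold higher at 50 hpf with tight replicates. The enzyme acod1, which makes itaconate in activated macrophages, was at 512, 444 and 526 CPM at 28 hpf and 219.5, 225 and 239.6 CPM at 50 hpf (log2 fold change -1.11 ± 0.10, adjusted p = 4.45e-06), lower in every 50 hpf library. All 3 changed in the same direction in csf1rDM, by 3.58, 2.05 and -1.44. Fits without single libraries were not made for these genes.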
